A study of Mus musculus with 6 samples.

Results

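Complement and coagulation are 2 protease cascades of blood plasma whose factors are made mostly by hepatocytes and secreted. They were followed here through 38 listed genes for complement components, clotting factors and their inhibitors in livers of mice lacking SIRT7, a nuclear sirtuin that acts on chromatin. A member was measured where a probe set carried exactly 1 gene symbol in the platform annotation, and each gene was read from the probe set that averaged highest across the 6 arrays. This held for 34 of the 38 listed genes, out of 12393 genes with such a probe set. All 34 also passed the expression filter, a mean log2 value of at least 4 over the 6 livers, which left 8343 genes in the test. C3, Cfd and Cpb2 are not analysed here, and C4b was covered by a probe set shared with its neighbour and close copy C4a, so it has no value of its own.

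The 2 groups were livers of Sirt7 knock-out mice (3 samples) and livers of wild-type mice (3 samples), each hybridised to its own 1-colour Affymetrix array. The labels state that all samples had the same treatment conditions, and give no strain, age, sex or diet. Whether the 3 samples of a genotype are 3 animals is not spelled out there, so the p-values here reflect only how these samples vary, and part of that variation may be technical. The values are log2 expression values of the GCRMA method, so that a difference of 1 is a change of 2-fold. Differences were taken within a probe set, and levels were not compared between genes as amounts of RNA. The summed levels of marker lists do add linear values over probe sets, so the brightest weigh most.

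In complement, the lectin and classical pathways recognise microbial sugars and bound antibody and cleave C4 and C2, the alternative pathway amplifies the reaction on C3, and all of them end in a pore built from C5 to C9. In coagulation, contact with charged surfaces or with tissue factor starts a chain of serine proteases that turns prothrombin into thrombin, while antithrombin, protein C and the plasmin system hold it in check. Hepatocyte nuclear factors keep many of these genes active in liver, and cytokines of the acute phase adjust several of them.

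Sirt7 mRNA was 2.38, 3.11 and 2.86 in the knockout livers, against 9.85, 9.80 and 9.57 in the wild-type livers. Its log2 value fell by 6.96 (SE 0.23), with a limma adjusted p of 3.99e-06. Array correlations over the tested genes were 0.949 to 0.984, and wild-type replicate 3 stood closer to the 3 knockouts (0.972, 0.977 and 0.979) than to wild-type replicates 1 and 2 (0.968 and 0.971). The correlations run across genes, and genes are no independent replicates. Alb, the albumin gene, was 12.41, 12.45 and 13.10 in knockout and 12.80, 12.90 and 12.94 in wild-type livers, so the defining hepatocyte marker was high in all 6.

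Most complement and coagulation genes had a lower mean in knockout livers, by small amounts, and no single gene passed the test. The mean was lower in 27 of 34 members (79.4%), where 54.6% of all tested genes were lower. The median difference of the members was -0.23 on the log2 scale, against -0.03 over all tested genes and -0.03 over the tested genes with a mean of at least 10, the range where most members lie. Limma called 0 members at an adjusted p under 0.05, where it called 2 of all 8343 genes (0.024%). The adjusted p of the members ran from 0.76 to 0.977. At an unadjusted p under 0.05 there were 2 members, Serpinc1 and Mbl2, both lower in knockout livers. That is 5.88% of the members, and the background is 6.46% of all genes in either direction and 3.42% for lower genes, so the count is close to what all genes gave. Every knockout value lay under every wild-type value in 5 of 34 members (Mbl2, Hc, Cfi, Serpinc1 and Hrg), a larger share than the 5.48% of all genes. The difference between these shares was not tested. Every knockout value lay above in 0 members, against 4.27% of all genes.

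**Figure D1:**
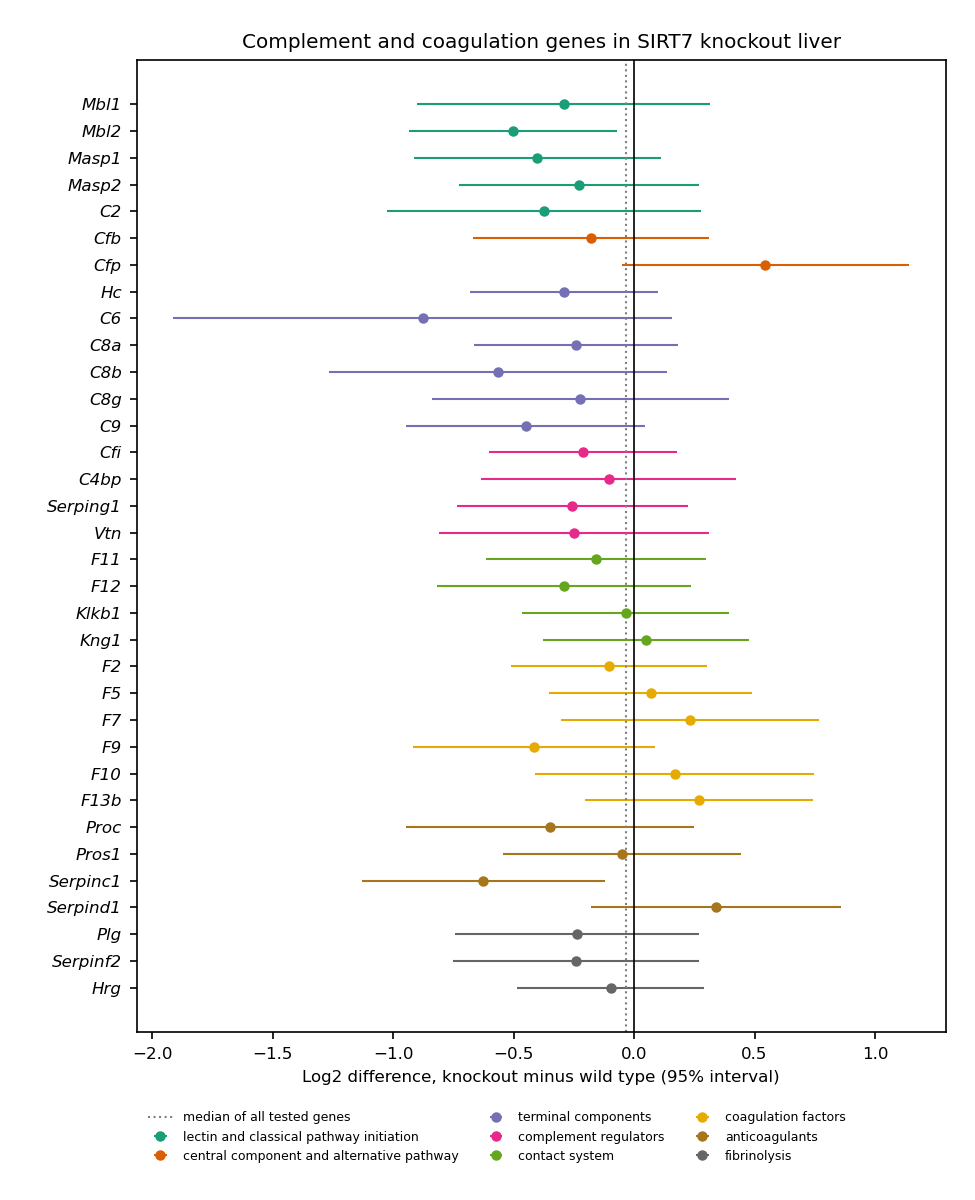
Log2 difference between knockout and wild-type livers (x axis) for the 34 measured complement and coagulation genes (rows, coloured by role). Points are limma estimates, bars are 95% intervals, and the dotted line marks the median of all tested genes. 27 points lie left of 0, and the intervals of Mbl2 and Serpinc1 alone leave out 0.

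Among the members, the complement genes were lower more evenly than the clotting genes. Of 17 measured complement genes 16 had a lower mean in knockout livers, with a median difference of -0.26, and of 17 measured coagulation and fibrinolysis genes 11 did, with a median of -0.10. The difference between these medians was not tested. The median deviation of the complement genes from their 6-liver mean was -0.30, -0.24 and 0.19 in knockout replicates 1 to 3. It was 0.04, 0.22 and 0.16 in wild-type replicates 1 to 3, so knockout replicate 3 lay within the wild-type range. By role, the mean was lower in 5 of 5 genes of lectin and classical initiation (median -0.37), 6 of 6 terminal components (median -0.37), 4 of 4 complement regulators (median -0.23), 3 of 4 contact system genes (median -0.10), 3 of 4 anticoagulants (median -0.20) and 3 of 3 fibrinolysis genes (median -0.24). It was lower in 2 of 6 coagulation factors, whose median was 0.12, and in 1 of 2 measured genes of the alternative pathway, Cfb and not Cfp (median 0.18). Complement genes outside the member list did not share this evenness. Of these, 2 of 6 other components (median 0.08) and 5 of 9 other regulators and receptors (median -0.15) had a lower mean. Other coagulation genes were lower in 14 of 23 (median -0.03).

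The knockout livers did not behave alike. The median deviation of the members from their own 6-liver mean was -0.20, -0.18 and 0.15 in knockout replicates 1 to 3, against -0.001, 0.14 and 0.17 in wild-type replicates 1 to 3. Knockout replicate 3 held the highest knockout value in 25 of 34 members, and over all tested genes in 3951 of 8343. The lowest of the 6 values came from knockout replicate 1 in 14 members (41.2%, against 29.1% of all genes) and from knockout replicate 2 in 9 (26.5%, against 15.1%). The highest came from wild-type replicate 3 in 14 members (41.2%, against 15.4% of all genes) and from wild-type replicate 2 in 8 (23.5%, against 17.4%). Knockout replicate 3 was the lowest of the knockout livers in 6 members, Mbl2, F5, F7, F13b, Pros1 and Serpind1, 5 of which belong to coagulation. Without knockout replicate 3 the median difference was -0.34 and 11 members (32.4%) had an unadjusted p under 0.05, where 16.6% of all genes did in the same fit. Without knockout replicate 1 or 2 the median was -0.14 in both cases. Such members numbered 1 without knockout replicate 1 (2.94%, against 4.42% of all genes) and 2 without knockout replicate 2 (5.88%, against 4.08%). Without wild-type replicate 3, the array nearest to the knockouts, the median was -0.15 with 25 of 34 members lower and 0 called. In that fit 38 of all genes (0.455%) were called. An unadjusted p under 0.05 was seen in 2 members (5.88%), against 11.8% of all genes.

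**Figure D2:**
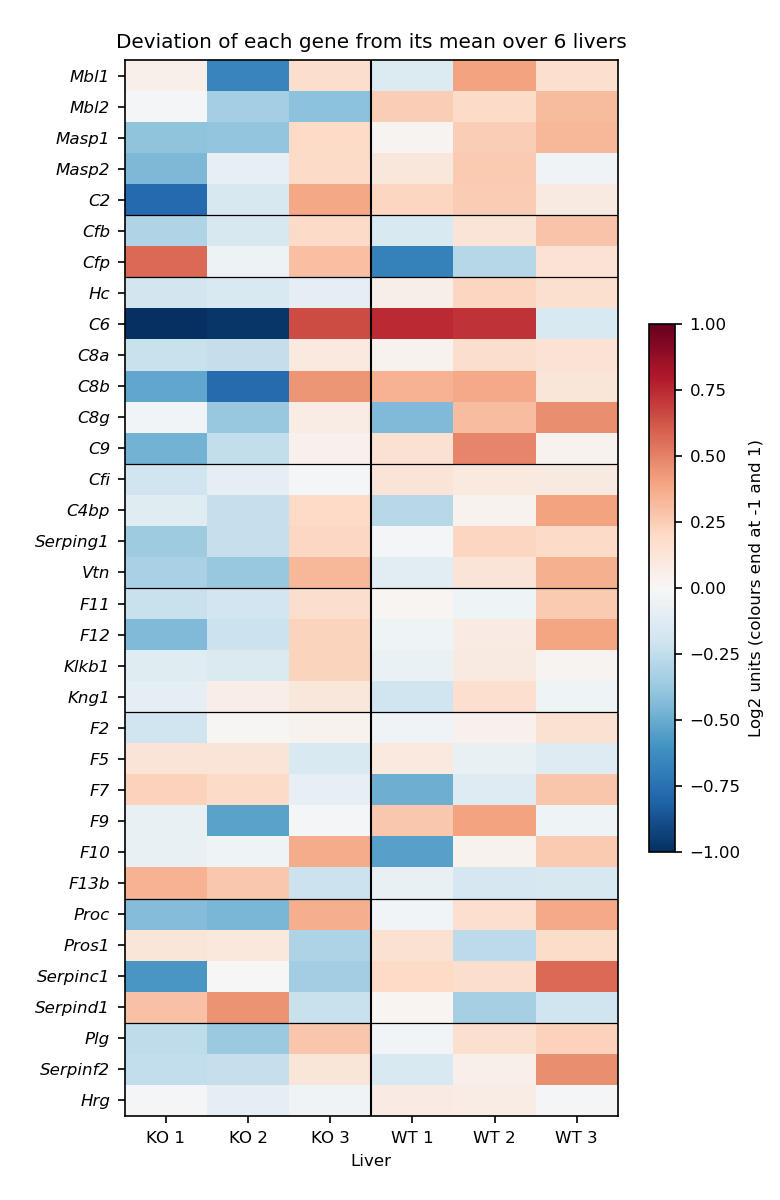
Deviation of each member from its mean over 6 livers (colour, log2 units), with genes in rows grouped by role and livers in columns, knockout on the left. Blue cells collect in knockout replicates 1 and 2, and knockout replicate 3 is the highest knockout liver in 25 of 34 rows.

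Markers of the hepatocyte itself had a median difference of the same size, -0.23. Of 9 tested hepatocyte markers 6 had a lower mean in knockout livers and 3 a higher one, 0 had an unadjusted p under 0.05 and limma called 0, and their median deviation was -0.32, -0.33 and 0.28 in knockout replicates 1 to 3, against -0.02, 0.20 and 0.21 in wild-type replicates 1 to 3. The log2 of their summed linear values was 15.57 to 16.12 in knockout and 15.78 to 16.02 in wild-type livers, and the lowest mean among the 9 was 11.145, far above the filter. Among them Apob, the structural protein of secreted lipoproteins, differed by -0.45 (SE 0.24), and Ttr, the thyroid hormone carrier, by 0.10 (SE 0.18). In bulk tissue, fewer cells of a type and less RNA per cell cannot be told apart. Acute phase genes were lower in 18 of 23 (median -0.27), with Saa1, a serum amyloid gene, at 11.25, 10.62 and 11.68 in knockout and 11.99, 12.58 and 12.09 in wild-type livers. Of 11 tested genes for hepatocyte transcription factors 9 were lower (median -0.31). Hnf4a, a master regulator of hepatocyte genes, differed by -0.18 (SE 0.20). Cell cycle genes were higher in 17 of 17 tested (median 1.36), 13 of them at an unadjusted p under 0.05 and 0 called by limma. Of all 8343 genes, 6.46% had such a p in either direction. Their median deviation was 0.65, 0.60 and 0.74 in knockout replicates 1 to 3, against -1.05, -1.01 and 0.33 in wild-type replicates 1 to 3. The part of these lists in the members' differences was not tested.

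**Figure D3:**
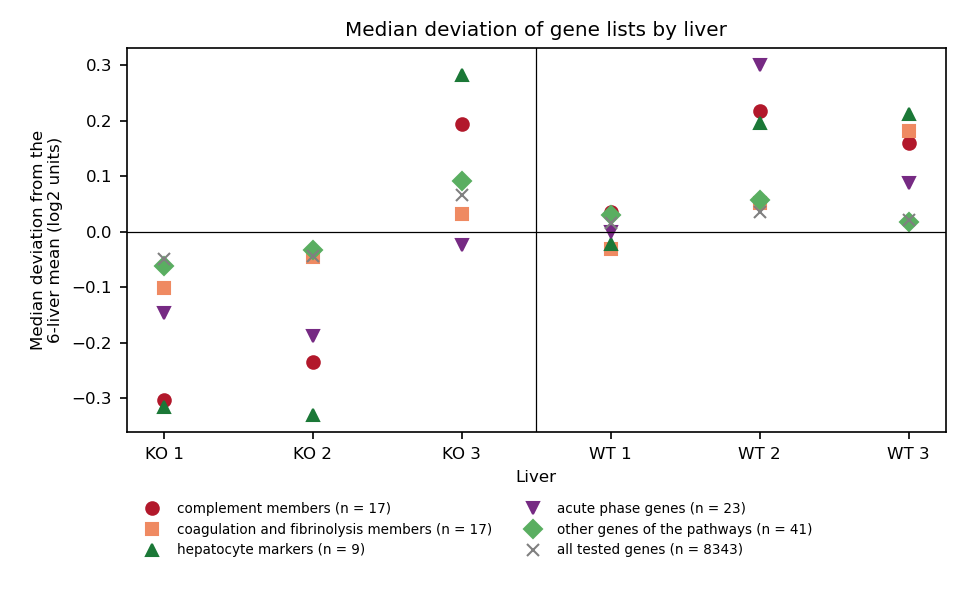
Median deviation from the 6-liver mean (y axis, log2 units) of gene lists in each liver (x axis, knockout left of wild type). The complement members (red circles) and the hepatocyte markers (dark green triangles) are both lowest in knockout replicates 1 and 2, and all tested genes stay between -0.05 and 0.07.

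The promoters of the members were also searched for short motifs. The windows were the 250 bases before the gene start in RefSeq (GRCm38.p6), found for 26 of the 34 members and read on both strands for the core GTTAAT of the hepatocyte factor HNF1, the core CAAAGTC of HNF4, the C/EBP site TTGCNNAA and the STAT site TTCNNNGAA. The HNF1 core was in 7 of 26 member windows (26.9%) and in 6.52% of the 27018 windows of all genes. The C/EBP site was in 5 (19.2%, against 9.56%), the STAT site in 4 (15.4%, against 7.18%) and the HNF4 core in 1 (3.85%, against 3.8%). A match describes letters and not a bound site. The windows of all genes were not limited to genes tested in these livers. The 7 stretches of 60 bases around the HNF1 core are shown 5′ to 3′ on the gene's strand, with the core or its reverse complement ATTAAC in capitals. None of the 7 cores overlapped another of the motifs searched.
C4bp (chr1:130661650-130661709, minus strand): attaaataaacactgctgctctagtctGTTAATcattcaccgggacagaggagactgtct
C8a (chr4:104876473-104876532, minus strand): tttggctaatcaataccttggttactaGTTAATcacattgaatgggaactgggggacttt
C8b (chr4:104766084-104766143, plus strand): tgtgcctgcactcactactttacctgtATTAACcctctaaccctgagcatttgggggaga
Cfp (chrX:20931556-20931615, minus strand): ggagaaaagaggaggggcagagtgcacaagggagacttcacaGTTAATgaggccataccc
F13b (chr1:139501629-139501688, plus strand): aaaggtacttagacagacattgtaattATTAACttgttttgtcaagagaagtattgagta
Hc (chr2:35061454-35061513, minus strand): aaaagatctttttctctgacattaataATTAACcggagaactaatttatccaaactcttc
Vtn (chr11:78498981-78499040, plus strand): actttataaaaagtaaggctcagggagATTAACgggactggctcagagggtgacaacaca
The core began 18 bases before the start in Cfp, 51 in F13b, 64 in C4bp, 74 in Hc, 107 in C8a, 112 in Vtn and 206 in C8b. The differences of these 7 genes ran from -0.57 to 0.54 with a median of -0.24, and those of the other 19 members with a window from -0.88 to 0.34 with a median of -0.22, so the members with and without the core covered much the same range.

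Recognition by the lectin pathway begins with the mannose-binding lectins, collagen-like proteins that bind sugars on microbes. Mbl2 was 11.87, 11.55 and 11.47 in knockout livers, against 12.13, 12.07 and 12.20 in wild-type livers. The groups did not overlap, and the difference was -0.50 (SE 0.19, 95% interval -0.93 to -0.07, limma adjusted p = 0.762), about 0.707 of the wild-type level. It stayed between -0.62 and -0.42 when any 1 liver was left out, so no single liver carried it. Mbl1, the other such lectin of the mouse, was under all wild-type livers in 1 knockout liver only, at 11.24, 10.53 and 11.37 in knockout and 11.05, 11.60 and 11.36 in wild-type livers, a difference of -0.29 (SE 0.27).

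The lectins act through the MASP proteases. Masp1 differed by -0.40 (SE 0.23), at 11.19, 11.20 and 11.80 in knockout and 11.62, 11.85 and 11.93 in wild-type livers. All 5 of its probe sets had a lower knockout mean, and the largest difference was on the third brightest, at 8.38, 8.50 and 9.34 in knockout and 9.85, 9.69 and 9.33 in wild-type livers (-0.88, 95% interval -1.53 to -0.24, limma adjusted p = 0.785 over all probe sets). There the wild-type replicate 3 value lay between knockout replicates 2 and 3, so the groups overlapped by that liver. Masp1 gives rise to several proteins by alternative splicing, and the sources used here do not say which transcripts each probe set reads.

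Masp2, the protease that cleaves C4 and C2, differed by -0.23 (SE 0.22) on its brightest probe set. Its second probe set split the livers in another way, at 8.81, 11.22 and 11.17 in knockout and 10.95, 10.78 and 8.97 in wild-type livers. Knockout replicate 1 and wild-type replicate 3 were thus far under the other 4 livers, across the genotype groups, and the difference on this probe set was 0.17 (SE 0.70). The brightest probe set shows no such split, with all 6 livers between 10.79 and 11.50.

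C2, the protease subunit of the classical C3 convertase, was 9.30, 9.92 and 10.47 in knockout and 10.30, 10.34 and 10.17 in wild-type livers (-0.37, SE 0.29). Its adjacent gene on chromosome 17, Cfb, encodes the matching subunit of the alternative convertase and differed by -0.18 (SE 0.21). In both, knockout replicate 3 was the highest knockout liver. The probe set shared by C4a and C4b was 11.20, 11.51 and 12.16 in knockout and 11.54, 12.26 and 12.11 in wild-type livers, a difference of -0.35 that cannot be assigned to either gene.

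Properdin, encoded by Cfp, stabilises the alternative convertase and is made largely by myeloid cells. Cfp had the highest positive difference of the members, at 8.36, 7.75 and 8.09 in knockout livers, against 7.12, 7.51 and 7.94 in wild-type livers. Wild-type replicate 3 overlapped the knockout range, and the difference was 0.54 (SE 0.26, 95% interval -0.05 to 1.14, limma adjusted p = 0.775). It was 0.75 without wild-type replicate 3 and 0.34 without wild-type replicate 1. Neutrophil and monocyte markers were higher in 4 of 5 tested genes (median 0.45), with a summed log2 level of 10.76 to 11.28 in knockout and 10.41 to 11.05 in wild-type livers. Their median deviation was -0.42, 0.76 and 0.60 in knockout replicates 1 to 3, against -0.23, -0.63 and 0.10 in wild-type replicates 1 to 3. Kupffer cell markers were higher in 6 of 10 (median 0.10), at 12.71 to 12.84 in knockout and 12.76 to 12.99 in wild-type livers. The median deviation of the Kupffer cell markers was 0.36, 0.0008 and -0.14 in knockout replicates 1 to 3, against -0.07, 0.05 and -0.10 in wild-type replicates 1 to 3. Only 5 of 10 listed neutrophil and monocyte markers were tested, and of these Camp (mean 4.11) and Ccr2 (mean 4.18) lay close to the filter. The part of the neutrophil, monocyte and Kupffer cell markers in the Cfp value was not tested.

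The terminal components build the membrane attack pore, and all 6 had a lower mean in knockout livers. Hc, the mouse gene of C5, was the most uniform, at 11.95, 11.97 and 12.03 in knockout and 12.18, 12.34 and 12.29 in wild-type livers. Its groups did not overlap, and the difference was -0.29 (SE 0.17, 95% interval -0.68 to 0.10, limma adjusted p = 0.796). C6 had the largest difference of all members and the widest spread, at 9.28, 9.30 and 10.93 in knockout and 11.02, 10.996 and 10.12 in wild-type livers. Knockout replicate 3 sat with the wild-type livers, and wild-type replicate 3 lay between, so the difference of -0.88 had an interval of -1.91 to 0.16 (limma adjusted p = 0.786). It was -1.42 without knockout replicate 3 (adjusted p = 0.265) and -0.60 without knockout replicate 1.

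C8b, the beta chain of C8, was 11.39, 11.13 and 12.35 in knockout and 12.25, 12.29 and 12.02 in wild-type livers (-0.57, SE 0.31). As in C6, knockout replicates 1 and 2 were the lowest of the 6 livers, while knockout replicate 3 was above every wild-type liver. Without knockout replicate 3 its difference was -0.93, and without knockout replicate 2 it was -0.32. C8a, the pore-forming alpha chain, lies next to C8b on chromosome 4 and differed by -0.24 (SE 0.19). Its knockout values of 12.08, 12.06 and 12.40 again had replicate 3 within reach of the wild-type values of 12.34, 12.48 and 12.45. C8g, the lipocalin-like gamma chain, did not share the order, with its lowest value of 11.75 in wild-type replicate 1 and a difference of -0.22 (SE 0.27). C9, which polymerises into the pore, was 11.46, 11.70 and 11.99 in knockout and 12.09, 12.43 and 11.97 in wild-type livers, a difference of -0.45 (SE 0.22) with an overlap between knockout replicate 3 and wild-type replicate 3 only.

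**Figure D4:**
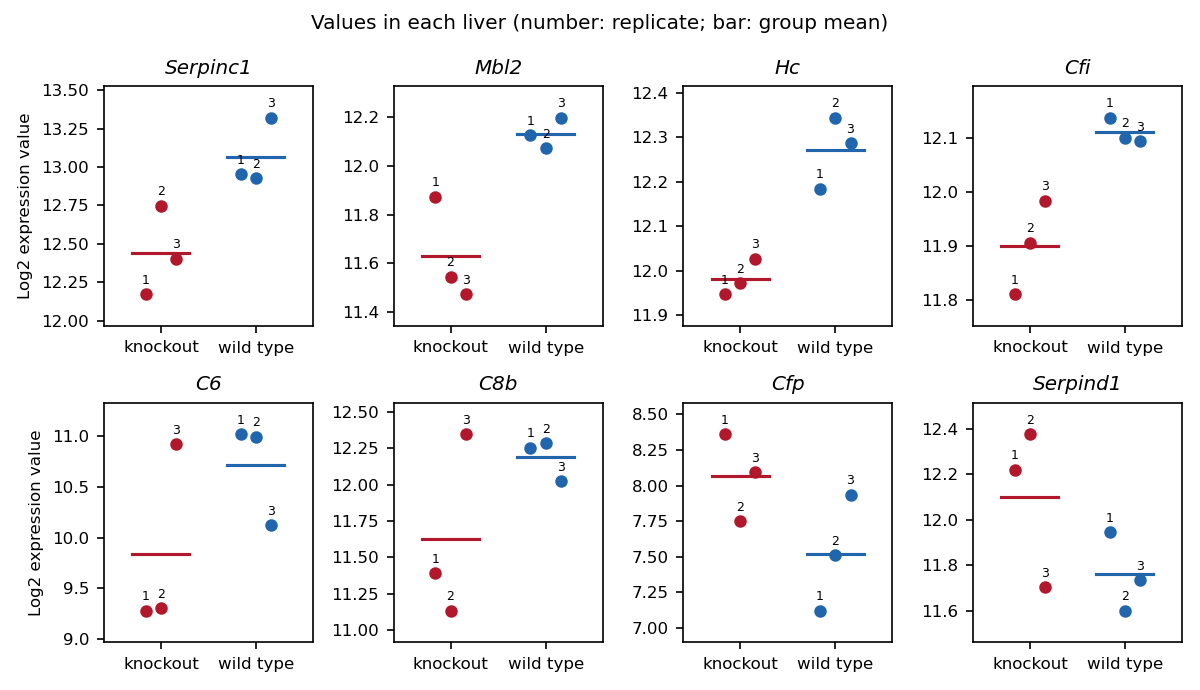
Log2 expression values (y axis, a separate range in each panel) of 8 members in each liver, knockout left of wild type, with the replicate number above each point and the group mean as a bar. Serpinc1, Mbl2, Hc and Cfi do not overlap, while knockout replicate 3 lies among the wild-type livers in C6 and above them in C8b.

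The 4 measured regulators that limit complement had lower means, with differences of -0.26 to -0.11. This range overlapped that of the terminal components, -0.88 to -0.22, and the roles were not tested against each other. Cfi, the protease that degrades C3b and C4b, was 11.81, 11.91 and 11.98 in knockout and 12.14, 12.10 and 12.09 in wild-type livers. The groups did not overlap, and the difference was -0.21 (SE 0.17, limma adjusted p = 0.828). Serping1, the C1 inhibitor, which also blocks contact proteases, differed by -0.26 (SE 0.21). C4bp, the C4b-binding protein, differed by -0.11 (SE 0.23), with 0.07 without wild-type replicate 3. Vtn, vitronectin, which keeps the terminal complex out of membranes, differed by -0.25 (SE 0.25) on its brightest probe set and by 0.12 (SE 0.19) on the other, so its direction depends on the probe set.

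None of the contact system genes passed the test, and their intervals all held 0. F12, the gene of the factor that starts it on charged surfaces, differed by -0.29 (SE 0.23) and F11, its substrate, by -0.16 (SE 0.20). Klkb1, the plasma prekallikrein gene next to F11 on chromosome 8, differed by -0.04, with an interval of -0.47 to 0.39. Kng1, the kininogen gene that yields bradykinin, was 12.48, 12.64 and 12.69 in knockout and 12.38, 12.75 and 12.53 in wild-type livers (0.05, interval -0.38 to 0.48). Its second probe set differed by -0.17, and the mouse has a second, closely similar kininogen gene that these probe sets may also read.

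The coagulation factors went both ways. F9, the gene deficient in haemophilia B, was 10.81, 10.36 and 10.88 in knockout and 11.16, 11.29 and 10.84 in wild-type livers, a difference of -0.41 (SE 0.22, limma adjusted p = 0.788). Only wild-type replicate 3 reached into the knockout range. F2, prothrombin, differed by -0.10 (SE 0.18), with an interval of -0.51 to 0.30.

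F7 and F10 had higher means in knockout livers, F10 on its brightest probe set only. F7, whose product binds tissue factor, was 10.20, 10.17 and 9.89 in knockout and 9.48, 9.84 and 10.25 in wild-type livers (0.23, SE 0.23). Its neighbour on chromosome 8, F10, the protease that makes thrombin, was 11.53, 11.55 and 11.97 in knockout and 11.06, 11.63 and 11.86 in wild-type livers (0.17, SE 0.25). Both were lowest in wild-type replicate 1, and without that liver the differences were 0.04 for F7 and -0.06 for F10. The other probe sets of F10 differed by -0.20 and -0.32, so its direction was not shared between probe sets.

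F5, the cofactor of F10, was 12.36, 12.36 and 12.08 in knockout and 12.33, 12.16 and 12.11 in wild-type livers (0.07, SE 0.19), with -0.12 on its other probe set. F13b, the carrier subunit of the fibrin-crosslinking factor, was 11.54, 11.46 and 10.97 in knockout and 11.12, 11.02 and 11.03 in wild-type livers. Knockout replicates 1 and 2 were above all wild-type livers and knockout replicate 3 below them, so the difference was 0.27 (SE 0.21). Serpind1, heparin cofactor II, an inhibitor of thrombin, also had its lowest knockout value in replicate 3, at 12.22, 12.38 and 11.70 in knockout and 11.95, 11.60 and 11.73 in wild-type livers (0.34, SE 0.23, limma adjusted p = 0.797). In C6 and C8b replicate 3 was instead the highest knockout liver.

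Serpinc1 encodes antithrombin, the main plasma inhibitor of thrombin and factor Xa, and had the smallest p of all members. It was 12.17, 12.75 and 12.40 in knockout livers, against 12.95, 12.93 and 13.32 in wild-type livers. Every knockout value was lower, and the difference was -0.63 (SE 0.22, 95% interval -1.13 to -0.12, limma adjusted p = 0.76), about 0.648 of the wild-type level. It lay between -0.78 and -0.49 when 1 liver was left out. Knockout replicate 3 was under every wild-type liver here, unlike in C6 and C8b. Antithrombin and heparin cofactor II thus pointed in opposite directions, although neither passed the test.

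Proc, protein C, which inactivates factors V and VIII, was 11.28, 11.26 and 12.08 in knockout and 11.69, 11.88 and 12.09 in wild-type livers (-0.35, SE 0.26). Knockout replicates 1 and 2 were under every wild-type liver, and knockout replicate 3 was within the wild-type range. Its cofactor protein S, Pros1, differed by -0.05 (SE 0.22).

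Of the fibrinolysis genes, Plg, plasminogen, differed by -0.24 (SE 0.22), and Serpinf2, the plasmin inhibitor, by -0.24 (SE 0.22). Hrg, the histidine-rich glycoprotein that binds plasminogen and heparin, was 12.36, 12.27 and 12.34 in knockout and 12.45, 12.45 and 12.36 in wild-type livers. Its groups were separate by a narrow margin, with a difference of -0.10 (SE 0.17, limma adjusted p = 0.911).

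Among 72 other genes listed for the same pathways, 41 were tested, 20 with a higher and 21 with a lower mean in knockout livers and a median difference of -0.01. Limma called 0 of them, and 1 had an unadjusted p under 0.05. That gene was C1qa, a chain of the C1q recognition protein that macrophages make, at 8.45, 7.68 and 7.25 in knockout and 6.27, 6.72 and 7.25 in wild-type livers (1.05, SE 0.35, limma adjusted p = 0.746). Its knockout replicate 3 and wild-type replicate 3 values were nearly equal. The other C1q chains differed less, C1qc by 0.31 (SE 0.20) and C1qb by 0.08. Toward lower values, Habp2, a plasma protease gene, differed by -0.50 (SE 0.27), Mcfd2, which helps export factors V and VIII from the endoplasmic reticulum, by -0.36 (SE 0.22), and Clu, clusterin, an inhibitor of the terminal complex, by -0.34 (SE 0.20). Anxa2, a cell-surface plasminogen receptor gene, differed by 0.46 (SE 0.34).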

How the data were processed

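Liver RNA of 3 knockout and 3 wild-type samples was measured on 1-colour arrays. The authors deposited log2 values per probe set, and the submitters' processing notes name GCRMA 2.20.0 and R 2.11.1. The log2 scale was read from their range of 0.841 to 13.969, and no settings of GCRMA are given here. Of 22626 probe sets, 20380 had 1 symbol. Genes with a mean under 4 were left out. Limma 3.58.1 (R 4.3.3) compared the genotypes, knockout minus wild type (2-sided, no block, 4 residual degrees of freedom), adjusted by Benjamini-Hochberg over 8343 genes. Errors of differences are moderated standard errors. The test was checked on simulated data. The number of arrays limits the precision.

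The members and lists were chosen with earlier results of these data known. Named genes are all members, with every liver's value for the 8 smallest p in either direction, for groups that do not overlap and for differences over 0.5, and the 6 other pathway genes with the smallest p. From the lists of markers, the 2 highest and 2 lowest genes and a few defining ones could be named. C1qb was named after its value was seen. Alternatives were other filters on dim genes, normalizations, probe set rules, an intensity trend, array weights, a replicate block and leaving out each array.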

Additional observations from a re-analysis of the deposited data

How the results depend on the processing

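The members' median difference of -0.23 lay between -0.34 and -0.14 without 1 array, was -0.187 under quantile normalization and -0.29 with array weights, and 25 to 30 of 34 members were lower under every alternative run. Limma called 0 members in the alternatives other than array weights, which called 10 members (29.4%) and 1748 genes in all (21%). Those weights were 6.12 for knockout replicate 2 and 2.54 for wild-type replicate 2, against 0.31 to 0.887 for the other arrays, so that fit rests mainly on 2 arrays. It called C6 (-1.53), C8b (-1.04), Mbl1 (-0.83), F9 (-0.79), C9 (-0.61), Masp1 (-0.58), Proc (-0.57), Mbl2 (-0.53) and Plg (-0.46) lower and Serpind1 (0.64) higher, and turned Kng1 to -0.005 and Pros1 to 0.20. Of all genes, 4 were called with an intensity trend, 1 with the mean of probe sets, and 1 to 38 without 1 array, 38 being without wild-type replicate 3. Members at an unadjusted p under 0.05 numbered 18 with array weights (52.9%, against 39.2% of all genes in that fit), 4 with an intensity trend (11.8%, against 6.32%), and 1 to 11 without 1 array, 11 being without knockout replicate 3 (32.4%, against 16.6%). Where each probe set was tested on its own, the probe set with the smallest p stood for its gene. In that setting and with the mean of probe sets, F10 was -0.32 and -0.12, F5 -0.12 and -0.023, and Kng1 -0.17 and -0.058. Without 1 array, C4bp lay between -0.27 and 0.07, F10 between -0.061 and 0.34, Klkb1 between -0.15 and 0.03, Kng1 between -0.037 and 0.15, and Pros1 between -0.19 and 0.09. The cause of these changes was not tested. The deviations of arrays with the same replicate number correlated at -0.089, -0.091 and -0.194, and those with different numbers at -0.251 to 0.315. Deviations from a mean of 3 arrays offset one another, so these values cannot show whether the numbers pair the samples. With the replicate block 2 genes and 0 members were called, with 27 members lower and a median difference of -0.23.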
